A study of Homo sapiens with 6 samples.

Results

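The genes described here encode the heat shock proteins and their DNAJ co-chaperones, that is the HSP90, HSP70, HSP110, HSP60/HSP10 and small heat shock protein families together with the DNAJA, DNAJB and DNAJC proteins. They were taken from the gene-level RNA-Seq table by symbol, as every symbol with a RefSeq mRNA name that begins with DNAJA, DNAJB, DNAJC, HSPA, HSPB, HSPD1, HSPE1, HSPH1 or HSP90, a rule that uses no expression value. This gave 77 of the 18973 symbols with such a name, at 75 distinct rows of the table. Of these, 2 are readthrough symbols (DNAJC25-GNG10 and HSPE1-MOB4), and HSPB11, HSPBP1 and HSPBAP1 carry the letters of a family to which they do not belong.

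RNA-Seq was performed on PC-3, an established cell line from a bone metastasis of a prostate adenocarcinoma. All cells carried the Tet-On transactivator rtTA2 from a first retrovirus under G418 selection, and a second retrovirus gave them tdTomato alone (tdTom) or TTP and tdTomato (TTP-tdTom), after which the tdTomato-positive cells were kept. In the second vector TTP is under the Dox-dependent promoter and tdTomato under the PGK promoter. Both groups, of 3 samples each, were collected after 4 hours in 300 ng/ml Dox, so the control cells shared the transactivator, the reporter and the drug, and no group without Dox was analysed here. The table gives 1 FPKM per group and locus, which is the authors' value (fragments scaled to the length of the transcript and to the size of the library). The spread between the 3 samples cannot be read from it, so no test between the groups was run and every difference below is a ratio of 2 group values without a replicate check. The depth reached is unknown. In bulk RNA, fewer cells of a kind and less RNA per cell cannot be told apart, and FPKM is a relative measure.

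The epithelial keratins KRT8, KRT18 and KRT19 and EPCAM were at 15.1 to 98.2 FPKM in tdTom cells, whereas CDH1 was at 0.12 FPKM in tdTom and 0.39 in TTP-tdTom cells. PTPRC, PECAM1 and DCN were under 1 FPKM in both groups, and COL1A1 was at 4.34 and 4.56 FPKM. ZFP36, the gene that encodes TTP, was at 5.56 FPKM in tdTom and 5.54 in TTP-tdTom cells, so its locus did not show the transgene, and the group labels could not be checked with it.

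Heat shock proteins of the HSP70 family bind exposed hydrophobic stretches of unfolded proteins and release them in a cycle driven by ATP. DNAJ proteins bring clients to HSP70 and stimulate its ATPase through the J domain, nucleotide exchange factors such as the HSP110 proteins reopen the cycle, and HSP90 acts later on signalling proteins that are nearly folded. Under heat or proteotoxic stress the transcription factor HSF1 activates many of these genes through heat shock elements, while the unfolded protein response activates those of the endoplasmic reticulum (ER). TTP acts on RNA: it binds AU-rich elements with the core UAUUUAU in the 3′ UTR of an mRNA and recruits the machinery that removes its poly(A) tail.

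Since TTP recognises such elements, the heptamer TATTTAT (the DNA letters of UAUUUAU) was sought in the sequence of the mRNA. The longest 3′ UTR that GENCODE 29 gives for a member was used. A match is a description of the sequence and not a site shown to be bound. The sites below, with 10 bases on each side and the heptamer in capitals, are written 5′ to 3′ on the strand of the mRNA. They belong to the members with the lowest ratios that hold a heptamer and are free of other genes in their row, and to DNAJC18 and DNAJC12, which hold it too and whose ratios were not low.
HSPA13, chr21:14371464-14371490, minus strand of GRCh38, 1 of 2 heptamers: caatttagttTATTTATttaaaagata
DNAJB4, chr1:78017288-78017314, plus strand: tttttaaataTATTTATgttttaaaaa
DNAJB14, chr4:99901000-99901026, minus strand, 1 of 4 heptamers: ctggaattttTATTTATaccttttagc
DNAJC24, chr11:31430560-31430586, plus strand, 2 of 2 heptamers, the first in capitals: tgaatataatTATTTATttgtatttat
HSPA4L, chr4:127835018-127835044, plus strand, 2 overlapping ones of 4 heptamers, the first in capitals: ccttataatgTATTTATttatttaatt
HSPH1, chr13:31137222-31137248, minus strand: atactgaaacTATTTATattttctttt
DNAJC3, chr13:95792305-95792331, plus strand, 1 of 2 heptamers: gaatattgaaTATTTATggcactcttg
DNAJC18, chr5:139414086-139414112, minus strand, 1 of 4 heptamers: tacttgttccTATTTATgttcctgatt
DNAJC12, chr10:67810947-67810973, minus strand: tactgtcataTATTTATtttgttcaac

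Of the 77 members, 62 had a mean FPKM of the 2 groups of at least 1 and were above 0 in both, and the counts below refer to them. A member was called lower or higher when the groups differed by at least 1.5-fold. In TTP-tdTom cells 15 of the 62 members were called lower, or 24.2%, beside 22.9% of the 11605 protein-coding symbols that passed the same filter, and 2 were called higher, or 3.23%, beside 1.74%. At a 2-fold difference, 6 members were lower, or 9.68%, beside 8.26%, and 0 were higher, beside 0.78%. The share of lowered chaperone genes was therefore near that of all genes. The median log2 ratio of TTP-tdTom over tdTom was -0.31 for the members and -0.24 for all symbols, and 50 of the 62 members lay below 0. As the median of all symbols was itself below 0, the ratios were also centred on it, after which 10 members were lower by 1.5-fold, or 16.1% beside 13.2% of all symbols, 3 were higher, beside 3.83%, and 38 lay below 0. The DNAJC25 row is counted under both of its symbols, and leaving out the members whose row names other genes gave 13 lower and 2 higher of 55. The called member closest to the threshold of -0.58 was DNAJC10 at a log2 ratio of -0.64, and the uncalled one closest to it was HSPBAP1 at -0.55.

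**Figure D1:**
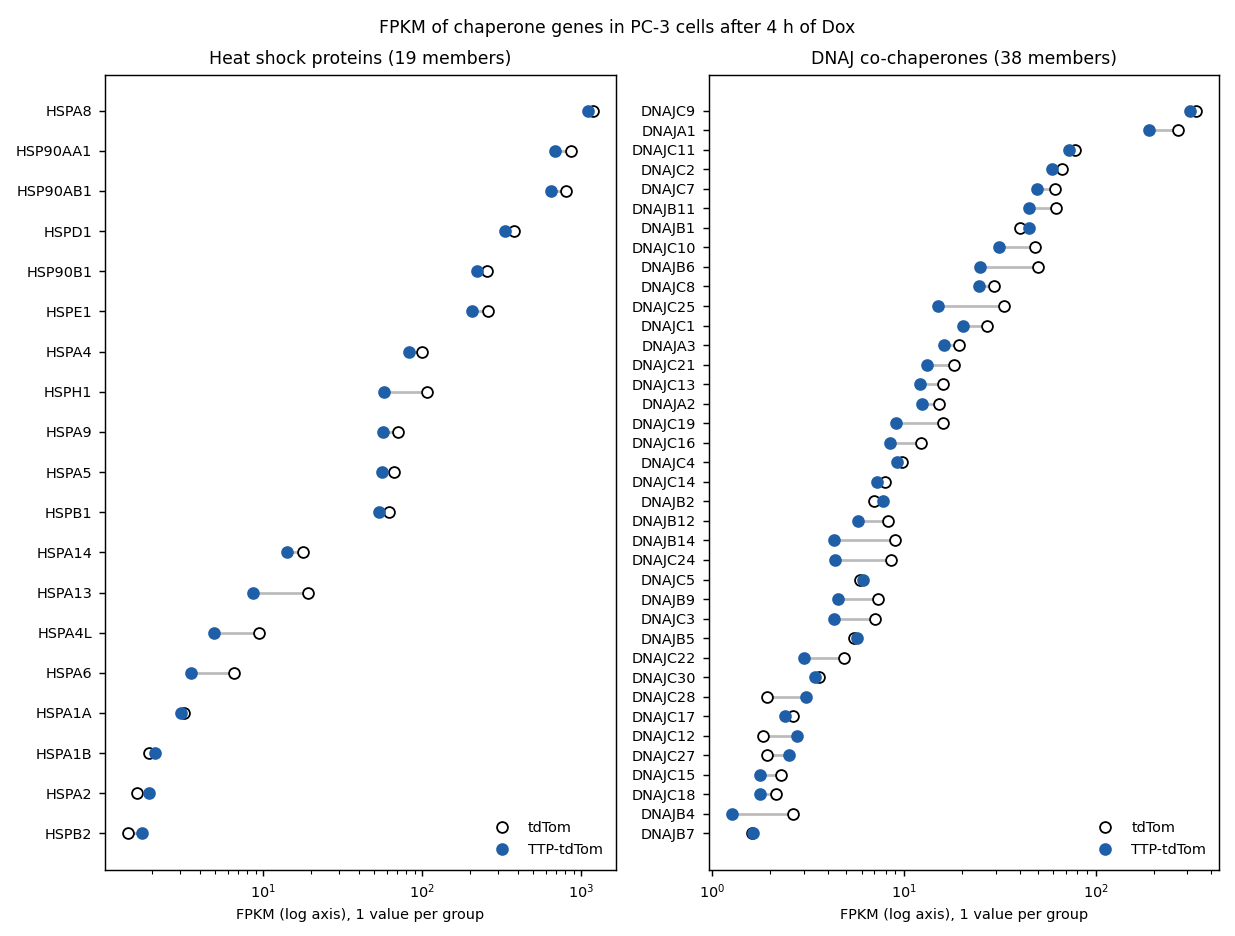
FPKM on a log axis of 19 heat shock protein members and 38 DNAJ members that passed the filter, ordered by mean level, with the tdTom group as open points and the TTP-tdTom group as filled points, 1 value per group and no error. At the top of the panels the points of HSPA8 and DNAJC9 nearly touch, while the abundant DNAJA1 and HSPH1 show wider gaps. The gaps of 2-fold or more are at HSPA13, DNAJC25, DNAJB6, DNAJB14 and DNAJB4.

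The most abundant chaperones were called in neither direction. HSPA8, the constitutive HSP70 of the cytosol, was the highest member at 1185 FPKM in tdTom and 1103 in TTP-tdTom cells, a log2 ratio of -0.10 that turned to 0.14 after centring on all symbols. The cytosolic HSP90 pair followed, with HSP90AA1 at 865 and 684 FPKM (-0.34) and HSP90AB1 at 807 and 652 FPKM (-0.31). A pseudogene copy, HSP90AB2P, was at 83.3 FPKM in tdTom and 96.6 in TTP-tdTom cells (0.21). Reads could have been split between this copy and HSP90AB1, and their part in these levels was not tested. HSP90B1, the HSP90 of the ER, was at 258 and 221 FPKM (-0.22). Summed over the family, HSP90 transcripts went from 1930.2 FPKM in tdTom to 1557 in TTP-tdTom cells. All 3 ratios lay below 0, with a median of -0.31 beside -0.24 for all symbols. That of HSP90B1 turned above 0 after centring on all symbols. When each ratio was centred on symbols of like GC content, 1 of the 3 lay below 0 and their median was 0. Of the 9 members with a mean of at least 100 FPKM, 0 were called, with a median log2 ratio of -0.31. HSPE1 and its readthrough symbol share a row, and over the 8 distinct rows the median was -0.26. Among all 636 symbols at that level 71 were called lower and 0 higher, and the median was -0.20.

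The chaperonin of mitochondria, in which HSPD1 (HSP60) forms the folding chamber and HSPE1 (HSP10) its lid, was likewise uncalled. HSPD1 was at 379.5 FPKM in tdTom and 335 in TTP-tdTom cells (-0.18), and HSPE1, whose row also names MOB4 and the readthrough symbol, at 261 and 208 FPKM (-0.33). After centring, HSPD1 lay above 0. Both genes lie at the same locus, chr2:198350082-198418423 of GRCh37, as separate rows of the table.

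The stress-inducible HSP70 genes were low in both groups. HSPA1A was at 3.21 FPKM in tdTom and 3.06 in TTP-tdTom cells (-0.07), and HSPA1B, which is nearly identical to it, at 1.94 and 2.09 FPKM (0.11). Reads of this pair could have been split between the copies, and their part in these levels was not tested. HSPA6, which is hardly expressed without stress, was at 6.62 and 3.55 FPKM, the only cytosolic HSP70 member called (-0.90). Its symbol stands at 3 rows with equally many RefSeq names, and the other two were under 1 FPKM in each group and pointed the opposite way (0.56 and 0.72). With the 3 rows summed the log2 ratio was -0.67. The table gives no strand, so which row is the gene's own could not be told, and all other values given for HSPA6 are those of its highest row. HSPA2, best known from the testis, was at 1.62 and 1.93 FPKM (0.25). Its other row, at 0.70 and 0.57 FPKM, lay below 0 (-0.31), and with its rows summed the log2 ratio was 0.10. HSPA14, which works at the ribosome, was at 17.9 and 14.3 FPKM (-0.32). HSPA1L and the distant HSP70 genes HSPA12A and HSPA12B had a mean under 1 FPKM.

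HSPA13, a microsomal HSP70 relative without the peptide-binding domain of the family, had the lowest ratio among members alone in their row. Its FPKM was 19.2 in tdTom and 8.73 in TTP-tdTom cells, so 45.4% remained (log2 ratio -1.14), and when centred on symbols of like GC content it was uncalled (-0.37). The gene lies at chr21:15743437-15755890 of GRCh37, and its 3′ UTR of 2502 bases holds 2 heptamers. The other organelle HSP70 proteins were uncalled: HSPA5 (BiP), the HSP70 of the ER lumen, was at 67.0 and 56.1 FPKM (-0.26), and HSPA9 (mortalin), that of the mitochondrial matrix, at 71.2 and 57.1 FPKM (-0.32).

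The HSP110 proteins, which serve HSP70 as nucleotide exchange factors, had 2 of 3 members called lower, beside 22.9% of all symbols. HSPH1 (HSP105) was at 107 FPKM in tdTom and 58.0 in TTP-tdTom cells, so 54.1% remained (-0.89). HSPA4L was at 9.47 and 4.93 FPKM, with 52.1% left (-0.94), whereas HSPA4, their closest relative, was at 100.3 and 82.7 FPKM (-0.28). HSPH1 holds 1 heptamer and HSPA4L 4, and HSPA4 holds 0. Both called members were also called after centring on all symbols, and neither was called when each ratio was centred on symbols of like GC content (-0.33 for HSPH1 and -0.17 for HSPA4L).

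Of the 7 small heat shock proteins only HSPB1 (HSP27) and HSPB2 passed the filter. HSPB1 was at 62.4 FPKM in tdTom and 53.9 in TTP-tdTom cells (-0.21), and HSPB2, in a row with C11orf52, at 1.43 and 1.74 FPKM (0.29). HSPB3, HSPB6, HSPB7 and HSPB8, known from muscle, were under 1 FPKM in both groups, and HSPB9, a testis gene, was listed at 0 in both. Of the symbols outside the families, HSPBAP1 was at 8.18 and 5.59 FPKM (-0.55), HSPB11 at 55.0 and 44.5 FPKM (-0.31), and HSPBP1, a nucleotide exchange factor, at 9.84 and 10.2 FPKM (0.05).

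**Figure D2:**
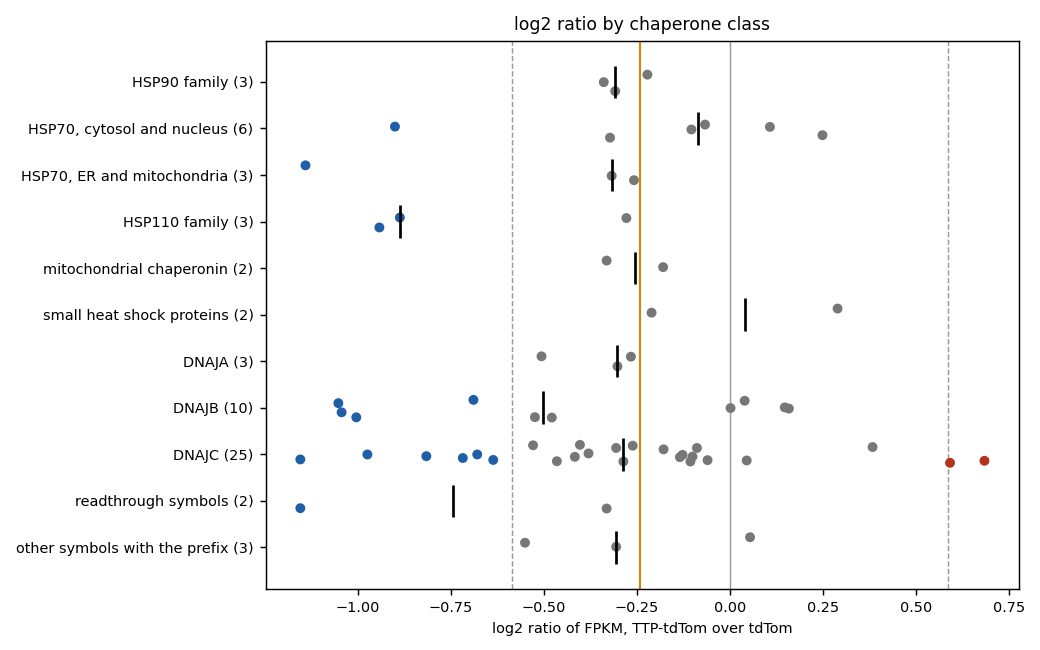
log2 ratio of FPKM, TTP-tdTom over tdTom, of the 62 members by class, 1 point per member (blue, lower by at least 1.5-fold; red, higher; grey, neither; vertical scatter only separates points). Black bars are class medians, dashed lines mark 1.5-fold and the orange line is the median of all protein-coding symbols, -0.24; the HSP90 and chaperonin points lie close to it, while points of the HSP70, HSP110, DNAJB, DNAJC and readthrough classes lie below the lower dashed line.

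The DNAJA proteins, the J proteins most like bacterial DnaJ, held 0 called members of 3, beside 22.9% of all symbols called lower. DNAJA1 was the second most abundant J protein gene, at 269.7 FPKM in tdTom and 189.9 in TTP-tdTom cells (-0.51). DNAJA2 was at 15.3 and 12.4 FPKM (-0.30), and DNAJA3, which works in mitochondria, at 19.4 and 16.2 FPKM (-0.27). DNAJA4 had a mean under 1 FPKM.

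The DNAJB class was spread more widely, with 4 of 10 members called lower, beside 22.9% of all symbols, and 0 higher. After centring on all symbols 3 were lower by 1.5-fold (DNAJB14, DNAJB4 and DNAJB6), beside 13.2%, and after centring by GC content 1 was (DNAJB6), beside 7.35%. DNAJB6, a J protein that keeps polyglutamine proteins from aggregating, was at 50.2 FPKM in tdTom and 25.0 in TTP-tdTom cells, so 49.9% remained (-1.004). DNAJB14 was at 8.92 and 4.33 FPKM (-1.04), DNAJB4 at 2.62 and 1.26 FPKM (-1.05) and DNAJB9 (ERdj4) at 7.32 and 4.54 FPKM (-0.69). DNAJB12, the close relative of DNAJB14 in the ER membrane, was at 8.22 and 5.72 FPKM (-0.52), and DNAJB11 (ERdj3), the co-factor of BiP in the lumen, at 62.2 and 44.6 FPKM (-0.48). In contrast, DNAJB1 (HSP40), the heat-inducible partner of cytosolic HSP70, was at 40.3 and 44.6 FPKM (0.15). DNAJB2, enriched in neurons, was at 6.99 and 7.81 FPKM (0.16), DNAJB5 at 5.51 and 5.66 FPKM (0.04) and DNAJB7 at 1.62 FPKM in each (0.00). Thus 6 of the 10 lay below 0, and the same number after centring on all symbols. DNAJB3, DNAJB8 and DNAJB13 did not pass the filter. In the row used, DNAJB13 was listed at 0 in tdTom cells, and in its other rows at 0.42 and 0.72 FPKM.

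Among the DNAJC proteins, which share little beyond the J domain, 6 of 25 members were called lower, or 24.0% beside 22.9% of all symbols, and 2 higher, or 8% beside 1.74%. After centring on all symbols 2 were lower by 1.5-fold (DNAJC25 and DNAJC24), or 8% beside 13.2%, and 14 lay below 0 in place of 21. After centring by GC content 1 was lower (DNAJC25), beside 7.35% of all symbols, and 3 were higher, beside 4.75%. The lowest ratio of all members was that of DNAJC25, at 33.3 FPKM in tdTom and 15.0 in TTP-tdTom cells (-1.15), in a row that also names GNG10 and their readthrough, so the 3 cannot be separated. DNAJC24, which acts in diphthamide synthesis, was at 8.54 and 4.35 FPKM (-0.97). DNAJC19, of the import motor of the mitochondrial inner membrane, was at 16.0 and 9.10 FPKM (-0.82). DNAJC3 (p58IPK), an ER protein that also inhibits the kinase PERK, was at 7.08 and 4.31 FPKM (-0.72), DNAJC22 at 4.84 and 3.02 FPKM (-0.68), and DNAJC10 (ERdj5), a disulfide reductase of the ER, at 48.4 and 31.1 FPKM (-0.64). The ratio of DNAJC10 turned above 0 when centred on symbols of like GC content (0.14).

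Both members called higher were at low levels. DNAJC28 was at 1.93 FPKM in tdTom and 3.10 in TTP-tdTom cells (0.68), and DNAJC12, a co-chaperone of the aromatic amino acid hydroxylases, at 1.84 and 2.77 FPKM (0.59). DNAJC27, at 1.93 and 2.51 FPKM, had the next highest ratio (0.38). With a pseudocount of 1 FPKM neither was called (0.48 and 0.41). DNAJC12 was also uncalled with a pseudocount of 0.1 FPKM (0.57) and with its rows summed (0.41), as its other row, under 1 FPKM, lay below 0 (-0.57). Of the most abundant DNAJC genes, DNAJC9, a histone chaperone in a row that also names ANXA7, MRPS16 and TTC18, was at 334 and 310.2 FPKM (-0.11), and DNAJC11, of the mitochondrial membrane, at 77.7 and 72.5 FPKM (-0.10). DNAJC5B was listed at 0 in tdTom cells in the row used and did not pass the filter. Its other row was at 0.05 FPKM in tdTom and 0.14 in TTP-tdTom cells.

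Grouped by place in the cell, a grouping drawn up after the values were seen and given as a description only, the J proteins of the ER held the most called members. Of 11 such genes, 5 were called lower (DNAJC25, DNAJB14, DNAJC3, DNAJB9 and DNAJC10), or 45.5% beside 22.9% of all symbols, and all 11 lay below 0, with a median log2 ratio of -0.53; after centring on all symbols 2 were lower by 1.5-fold (DNAJC25 and DNAJB14), beside 13.2% of all symbols, and 10 lay below 0. Those uncalled were DNAJB11 and DNAJB12 (above), DNAJC1, DNAJC14, DNAJC16 and DNAJC18, of which DNAJC14 was the highest at -0.13. Beside this, 8 of the 11 hold a heptamer. The row of DNAJC25 also names GNG10 and their readthrough, so its calls here cannot be assigned to DNAJC25 alone. After centring on symbols of like GC content 1 of the 11, DNAJC25, was still lower by 1.5-fold, beside 7.35% of all symbols. After that centring 9 of the 11 lay below 0, the median was -0.19, and DNAJC10 lay above 0 (0.14). In mitochondria 1 of 10 members was called lower (DNAJC19), beside the same 22.9%, and 1 higher (DNAJC28), beside 1.74%, with a median of -0.22. The nuclear and ribosome-associated J proteins, DNAJC2, DNAJC8, DNAJC9, DNAJC17 and DNAJC21, held 0 called of 5 (-0.46 to -0.11).

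**Figure D3:**
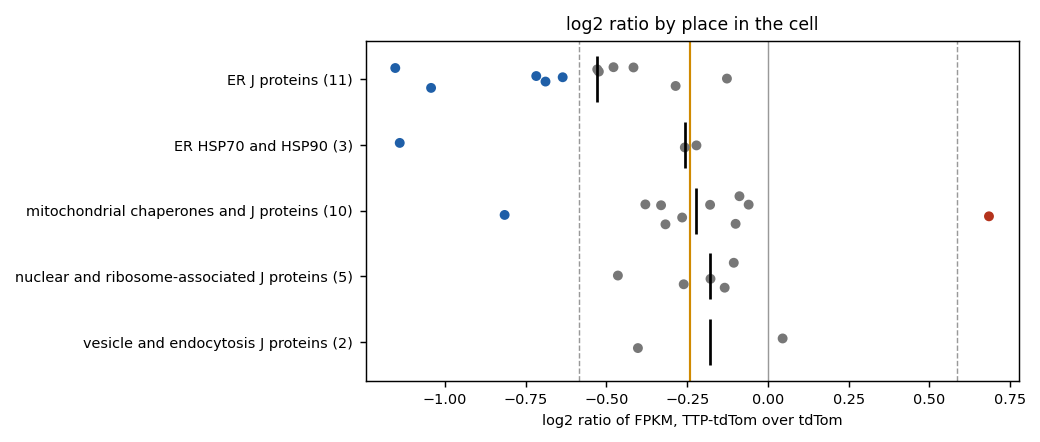
log2 ratio of FPKM, TTP-tdTom over tdTom, of members grouped by place in the cell, 1 point per member (blue, lower by at least 1.5-fold; red, higher; grey, neither; vertical scatter only separates points), with black bars for medians, dashed lines at 1.5-fold and the orange line at the median of all protein-coding symbols. The 11 ER J proteins lie at or below -0.13 with a median of -0.53, and the other groups centre between -0.26 and -0.18.

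The heptamer divided the members. Of the 22 that hold at least 1 heptamer, 10 were called lower, or 45.5%, with a median log2 ratio of -0.54, and of the 40 with none 5 were called lower, or 12.5%, with a median of -0.19. In the 10 members with 2 or more heptamers, 6 were called lower and the median was -0.68, beside 49.8% and -0.58 for all symbols with as many. All symbols showed nearly the same values, with 39.5% called lower and a median of -0.45 among 4125 with a heptamer, and 13.6% and -0.18 among 7321 without. The DNAJC25 row counts in both groups, since its readthrough symbol holds 1 heptamer and DNAJC25 holds 0, and without the readthrough symbols 9 of 21 members with a heptamer and 5 of 39 without were called lower. With a heptamer, 20 of 22 members lay below 0, and DNAJB7 (0.00) and DNAJC12 (0.59), with 1 each, did not. DNAJC18, with 4 heptamers, was at 2.15 and 1.76 FPKM (-0.29). DNAJC25, DNAJB6, DNAJC19, DNAJC22 and HSPA6 were called lower with 0 heptamers in the 3′ UTR searched. The 3′ UTR searched for DNAJC10, which holds 5, is that of a GENCODE transcript with 17332 bases of it, and which transcripts PC-3 cells use was not analysed here.

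GC content moved with the heptamer and with the ratio. The median GC content of the transcripts was 40.2% in members with a heptamer and 48.5% in those without. Across the 62 members Spearman's rho was -0.50 between the log2 ratio and the number of heptamers, 0.45 between the log2 ratio and GC content, and -0.52 between the heptamers and GC content; these describe genes of the same libraries, which are not independent replicates. All symbols were divided into 10 bands of equal size by GC content. The lowest band had a median log2 ratio of -0.77 and 64.3% called lower, and the highest had -0.09 and 3.58%. After each ratio was centred on the median of its band, 4 members were lower by 1.5-fold (DNAJC25, DNAJC25-GNG10, DNAJB6 and HSPA6), or 6.45% beside 7.35% of all symbols, and 5 were higher (DNAJC12, DNAJC28, DNAJC27, DNAJB7 and HSPA2), beside 4.75%. HSPA2 was just past the threshold of 0.585, at 0.588. The median of the members was then 0.015, and it was -0.16 with and 0.08 without a heptamer, beside -0.07 and 0.03 for all symbols. Whether the GC content or the heptamer has a part in the lower ratios was not tested. DNAJB6 and HSPA6, with 0 heptamers and GC contents of 49.4% and 58.4%, had GC-centred log2 ratios of -0.81 and -0.80.

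**Figure D4:**
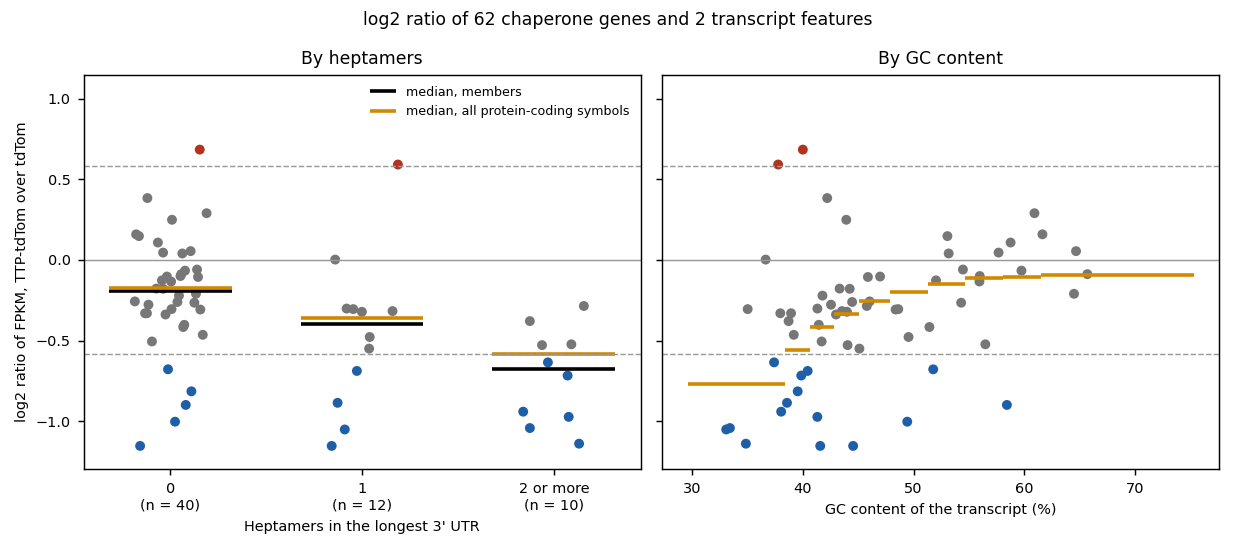
log2 ratio of FPKM, TTP-tdTom over tdTom, of the 62 members against the number of heptamers in the longest 3′ UTR (left) and the GC content of the transcript in percent (right), 1 point per member (blue, lower by at least 1.5-fold; red, higher; grey, neither; sideways scatter on the left only separates points). Black bars are member medians and orange bars the medians of all protein-coding symbols, on the right by band of GC content; member and overall medians lie close to each other at 0 heptamers (-0.19 and -0.18), and the orange bars climb from -0.77 at low GC content to -0.09 at high.

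To see whether the members with heat shock elements behaved as a group, the 250 bases before each start site in the RefSeq promoter table (GRCh38) were searched for 3 alternating units, GAANNTTCNNGAA or TTCNNGAANNTTC, which are each other's reverse complement, so that both strands were covered. Promoters of 68 of the 77 members were found there, with none for DNAJB3, DNAJC1, DNAJC5B, DNAJC22, DNAJC24, HSPA12B, HSPA14, HSPB2 and HSPB11. The element was in 6 of the 89 promoters of these members, each of a different member, and in 155 of all 35116 promoters, or 0.441%. The matches are shown with the units in capitals, 5′ to 3′ on the strand of the gene, as the sequence these 6 genes have in common; HSP90AB1 and HSPA8 each hold a second match elsewhere, and the stretch of HSPD1 holds 2 overlapping ones.
HSPA8, chr11:123062169-123062201, minus strand: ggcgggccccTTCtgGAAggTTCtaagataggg
HSP90AA1, chr14:102087110-102087142, minus strand: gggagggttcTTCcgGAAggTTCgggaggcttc
HSP90AB1, chr6:44247821-44247853, plus strand: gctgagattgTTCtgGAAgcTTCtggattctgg
HSPD1, chr2:197500058-197500090, minus strand: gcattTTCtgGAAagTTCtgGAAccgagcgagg
HSPA6, chr1:161524456-161524488, plus strand: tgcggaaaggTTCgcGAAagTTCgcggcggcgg
DNAJB6, chr7:157336863-157336895, plus strand: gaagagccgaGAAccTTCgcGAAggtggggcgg

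These 6 members did not share a level or a ratio. HSPA8, HSP90AA1, HSP90AB1 and HSPD1 were among the most abundant and uncalled, while DNAJB6 and HSPA6 were called lower, and the 6 log2 ratios ran from -1.004 to -0.10. The shorter form with 2 units, GAANNTTC or TTCNNGAA, which is contained in the longer one, was in 20 of the 89 promoters, each of a different member, and in 11.6% of all promoters, and of the 15 that passed the filter 4 were called lower, or 26.7% beside 22.9% of all symbols, with a median of -0.31. The ER stress response element was found in HSPA5 and HSP90B1 and in 26 of the 35116 promoters, and neither gene was called. A promoter without a match says only that these letters are not in this window.

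The factors around the chaperones were read from lists of their regulators and partners. Of the heat shock factors, 0 of the 3 that passed the filter were called, beside 22.9% of all symbols called lower and 1.74% higher: HSF1 was at 17.4 FPKM in tdTom and 15.7 in TTP-tdTom cells (-0.15), HSF2 at 4.55 and 4.26 FPKM (-0.09), and HSF4, in a row with FBXL8 and NOL3, at 4.64 and 4.00 FPKM (-0.21). Of 10 nucleotide exchange factors of HSP70, 3 were called lower, or 30.0% beside 22.9% of all symbols, and 0 higher, with a median of -0.21. The lowest was BAG4, at 16.3 and 7.90 FPKM (-1.04), and the highest HSPBP1 (above), while BAG3, a target of HSF1, was at 40.0 and 35.8 FPKM (-0.16). The other called members were GRPEL2 and GRPEL1, the exchange factors of mitochondrial HSP70, at log2 ratios of -0.95 and -0.59.

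Of 18 co-chaperones of HSP90 and HSP70, 1 was called lower, or 5.56% beside 22.9% of all symbols, and 0 higher, with a median of -0.23. It was CHORDC1, at 27.1 FPKM in tdTom and 13.9 in TTP-tdTom cells (-0.96), and the highest was STUB1 (CHIP), a ubiquitin ligase, at 22.6 and 26.5 FPKM (0.23). The TRiC chaperonin and prefoldin both take part in the folding of actin and tubulin in the cytosol. Of their 14 genes 5 were called lower, or 35.7% beside 22.9%, and 0 higher, with a median of -0.31. The prefoldin subunits PFDN2, at 41.2 and 15.1 FPKM (-1.45), and PFDN4, at 17.9 and 6.80 FPKM (-1.39), were below every chaperone member, whereas PFDN6 of the same complex was at 50.8 and 54.9 FPKM (0.11). The other called genes were CCT6A, in a row with SUMF2, CCT8 and VBP1. Of 16 genes of the unfolded protein response and of folding in the ER, 0 were called, beside 22.9% of all symbols called lower, with a median of -0.22, from SEL1L at 11.3 and 7.77 FPKM (-0.54) to SYVN1 at 23.2 and 24.2 FPKM (0.06).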

How the data were processed

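Strand-specific libraries were sequenced from both ends. Alignment was to Hs37D5 (GRCh37 with decoys) by the methods, and the submitters' processing notes name TopHat2 2.0.13 and Cufflinks 2.2.1. The deposited table holds FPKM values computed by the authors, 1 per group and locus over 406165 rows. Its own fold changes, p-values and q-values were not used. The design allowed for values per sample, and as there was 1 per group no fit was made; the depth reached per sample is not known.

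For each symbol the row with most RefSeq names, then the highest FPKM, was kept. Ratios are log2 of FPKM in TTP-tdTom over tdTom, with no pseudocount. Starts are counted from 1. 3′ UTRs, sites and GC content are from GENCODE 29 (GRCh38) and promoters from RefSeq (GRCh38). The members and lists were chosen with earlier results of these data known. Genes named were the 12 most abundant, the 12 lowest and 6 highest ratios, all members outside DNAJC, and the extremes of each other list with HSF1, HSF2 and BAG3. DNAJC members of the place groups, the other called genes of the lists and HSF4 were added after their values were seen. So were HSPBAP1 beside the threshold, the pseudogene HSP90AB2P and members with a sequence shown. The work was done in Python 3.11.15 (numpy 2.4.6, matplotlib 3.10.9, pandas 2.3.3), with functions tested on simulated data. Alternatives were pseudocounts of 0.1 and 1 FPKM, 2 scalings, other rows, filters, folds and member lists and, added after seeing the data, leaving out merged rows and centring by GC content. A marker on the list is not reported here.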

Additional observations from a re-analysis of the deposited data

How the results depend on the processing

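No paired analysis was possible because the table holds 1 value per group, and for the same reason the planned replicate block and the fits without each replicate were not run. As reported, 15 members were lower, 2 were higher and the median log2 ratio was -0.31. The number lower was 7 with a minimum mean of 10 FPKM (35 members, 20% beside 24.0% of all symbols), 6 at 2-fold, 27 at a fold below 1.5 (43.5% beside 40.6%) and 4 after centring by GC content, and 10 to 16 under the other settings. The number higher was 1 with a pseudocount of 1 FPKM (DNAJB13, listed at 0 in tdTom cells in the row used), 4 with the rows of a symbol summed (beside 4.94% of all symbols), 5 of 74 with no minimum FPKM (beside 11.9%), 0 with a minimum of 10 FPKM, 0 at 2-fold and 5 after centring by GC content. The median was -0.28 with a pseudocount of 1 FPKM, -0.065 centred on the median of all symbols, -0.086 with FPKM rescaled to the same sum, -0.27 with no minimum, -0.32 with a minimum of 10 FPKM, and 0.015, now above 0, after centring by GC content. A higher minimum leaves fewer members to call and a higher fold calls fewer of them by construction, and the cause of the other shifts was not tested. The share of all symbols called lower moved too, to 13.2% when centred, 13.8% when rescaled and 7.35% when centred by GC content, beside 16.1%, 17.7% and 6.45% of the members. Of 43 members followed singly under these settings, 7 changed sign when centred, 6 when rescaled and 13 when centred by GC content, none of them called. With a pseudocount, with the highest row or with rows summed 0 of the 43 did so. DNAJC10, called lower but not among the 43, lay above 0 after centring by GC content (0.14). Over all 62 members, 38 lay below 0 when centred, 39 when rescaled and 27 when centred by GC content, in place of 50. FPKM carries no counts, so the counting error of members near 1 FPKM is unknown.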
